A study of Mus musculus with 32 samples.

Results

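Ferroptosis is a form of cell death in which polyunsaturated fatty acids in membrane phospholipids are oxidized in a reaction that iron drives, and a small set of genes sets how readily it happens. The 10 genes described here, out of 55291 gene symbols in the deposited tables, were taken by symbol: Gpx4, Slc7a11, Gclm, Txnrd1, Aifm2, Nqo1, Acsl4, Tfrc, Fth1 and Hmox1. On GRCm38, Slc7a11 (chr3:49892526-50443614, minus strand) and Gclm (chr3:122245557-122270732, plus) lie on chromosome 3, Hmox1 (chr8:75093621-75100589, plus) and Nqo1 (chr8:107388225-107403206, minus) on chromosome 8. Aifm2 (chr10:61715263-61739260), Gpx4 (chr10:80047166-80056439) and Txnrd1 (chr10:82833951-82897712) lie on the plus strand of chromosome 10, Tfrc (chr16:32608920-32632794) and Fth1 (chr19:9980598-9985098) on the plus strand of chromosomes 16 and 19, and Acsl4 (chrX:142317993-142390535) on the minus strand of the X chromosome. All 10 were found in the tables of all 4 stages and all 10 passed the filter on low counts in every comparison. Their transcripts were measured in whole brains of wild-type mice (WT, labelled Dhcr7+/+) and of mice without a working Dhcr7 gene (KO, labelled Dhcr7-/-), all of strain C57BL/6J. Brains were taken before birth at E12.5, E14.5 and E16.5 (E for embryonic day) and on postnatal day 0 (PND0), with 4 libraries per genotype and stage and 32 in all. Dhcr7 encodes the enzyme that turns 7-dehydrocholesterol into cholesterol in the last step of synthesis, and 7-dehydrocholesterol, a sterol that is oxidized very easily, builds up when the enzyme is lost. The comparison asks whether transcripts of lipid peroxide defence differ where that sterol builds up. The labels do not say which libraries come from the same litter, so the p-values below measure only the spread between these libraries, which may be technical in part.

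The defence works in several layers. GPX4, a selenium-containing peroxidase, reduces lipid peroxides within membranes at the cost of glutathione. SLC7A11 brings in cystine, from which cells make the cysteine of glutathione, and GCLM is the regulatory subunit of the enzyme that starts glutathione synthesis. TXNRD1, another selenoprotein, keeps thioredoxin reduced, while AIFM2 (also called FSP1) and NQO1 reduce quinones such as coenzyme Q, which traps lipid radicals. ACSL4 acts in the opposite sense, because it activates the polyunsaturated fatty acids that are built into phospholipids and are the fuel of the reaction. Iron enters cells through the transferrin receptor TFRC, is stored in ferritin, whose heavy chain is FTH1, and is released from heme by HMOX1. The transcription factor NRF2 is known to drive Slc7a11, Gclm, Txnrd1, Nqo1, Hmox1 and Fth1.

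2 kinds of sequence in these transcripts set how they are read, and they are shown because the levels below are levels of transcript, not of protein. The first kind is the iron-responsive element, a hairpin that iron regulatory proteins bind when iron is scarce: in the 5′ UTR of Fth1 it blocks translation and in the 3′ UTR of Tfrc it stabilizes the transcript. A search for a C, 5 bases, CAGTG with A, C or T after it, and 5 bases that can pair with the first 5 (G with U allowed) found 1 match in Fth1 (chr19:9982738-9982754, plus strand, GRCm38, 5′ UTR) and 4 in Tfrc (chromosome 16, plus strand, 3′ UTR). The pattern of 17 bases occurred in 205 of 21866 longest protein-coding transcripts of GENCODE M21 (0.938%), and 1 of these held at least 4 matches. Capitals mark the 6 bases of the loop, and the coordinates are those of the 17 bases.
Fth1 5′ UTR: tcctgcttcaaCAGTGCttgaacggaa
Tfrc 3′ UTR, chr16:32631225-32631241: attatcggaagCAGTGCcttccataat
Tfrc 3′ UTR, chr16:32631604-32631620: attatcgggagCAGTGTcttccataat
Tfrc 3′ UTR, chr16:32631669-32631685: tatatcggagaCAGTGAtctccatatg
Tfrc 3′ UTR, chr16:32631716-32631732: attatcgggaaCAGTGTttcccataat
The second kind is the UGA codon (TGA in the DNA letters used here) that is read as selenocysteine in Gpx4 and Txnrd1 and forms part of both active sites. It is codon 73 of a Gpx4 transcript (chr10:80054737-80054739, plus strand) and codon 498 of a Txnrd1 transcript (chr10:82896037-82896039, plus strand), shown in capitals.
Gpx4: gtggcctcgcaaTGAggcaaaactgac
Txnrd1: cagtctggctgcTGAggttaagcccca
NRF2 binds the antioxidant response element, whose core was searched as TGACNNNGC on both strands of the 250 bases before and 50 bases after each RefSeq gene start (GRCm38.p6, 16 promoters of 9 of the 10 genes, without Hmox1). The core was found in 1 promoter each of Gclm (chr3:122245413-122245441) and Txnrd1 (chr10:82859104-82859132), in both on the minus strand. These are 2 of the 16 promoters, and the core occurs in 12.4% of the 32851 promoters in that table. It was not in the windows of Slc7a11, Nqo1 and Fth1, 3 of the other NRF2 targets. The 2 stretches are given on the plus strand with the core in capitals.
Gclm promoter: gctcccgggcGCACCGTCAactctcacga
Txnrd1 promoter: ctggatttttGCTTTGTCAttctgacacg

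The libraries held 13.87 to 28.32 M counts each, so that 3 counts, the most that a count of 0 allows, were worth 0.106 to 0.216 CPM, the unit used below for a count relative to the TMM-scaled library total (the limit covers counting error only). The member with the fewest counts, Nqo1, had 21 to 106 per library, and the one with the most, Fth1, had 3091 to 8552. Dhcr7 was lower in every KO library than in every WT library of its stage, with 58.8 to 104 CPM in the 16 WT and 11.8 to 26.6 CPM in the 16 KO libraries. Markers of neurons and of neural progenitors were present in every library, with no marker of either list listed at 0 in a group. 1 ribosomal RNA gene (CT010467.1) held 5.64% of the counts of E12.5 KO replicate 1, 3.75% of those of E16.5 WT replicate 1 and 0.191% to 2.78% of those of the others, and the first of these also stood apart in Gpx4 and Fth1. PND0 WT replicate 4 had 61.3 CPM of Dhcr7 where the other 3 had 99.3 to 104. Each stage was deposited as its own table, so stage and any technical difference between the tables cannot be told apart, and in bulk brain RNA fewer cells of a type and less RNA per cell cannot be told apart either.

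In WT brain most of the 10 genes changed with age, in different directions, so that the set did not move as a block. From E12.5 to PND0, Slc7a11, Gclm, Aifm2, Acsl4 and Fth1 rose and Gpx4, Txnrd1, Tfrc and Hmox1 fell (edgeR quasi-likelihood test, Benjamini-Hochberg adjusted p under 0.05 over all genes tested), 9 of 10 in all. Among all genes 70.9% passed the same test (34.5% higher and 36.4% lower), so the share among the members is not a result about them. The steps between neighbouring stages gave 8 of 10 from E12.5 to E14.5 (2 higher and 6 lower, against 57.8% of all genes, 27.3% higher and 30.5% lower), 6 of 10 from E14.5 to E16.5 (5 higher and 1 lower, against 57.5%, 29.3% and 28.2%) and 7 of 10 from E16.5 to PND0 (5 higher and 2 lower, against 53.2%, 26% and 27.2%). In the first step 5 of the 10 passed with no filter on low counts and 4 to 7 when a library was left out, the lowest without E14.5 WT replicate 1. The median log2 fold change of the members was -0.33, 0.41 and 0.16 in the 3 steps, beside -0.03, 0.01 and -0.01 over all genes. The genes whose 4 libraries at one stage did not overlap the 4 at the other numbered 6, 6 and 4 in the 3 steps and 9 from E12.5 to PND0, beside 53.6%, 53.2%, 48.3% and 65.7% of all genes. The make-up of the tissue shifted over the same span. From E12.5 to PND0 all 12 neuronal markers and 8 of 9 astrocyte markers rose. In the same span 10 of 12 progenitor markers, 11 of 13 erythroid markers and 8 of 12 markers of meninges and fibroblasts fell. The part of these cells in the changes of the members was not tested.

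**Figure D1:**
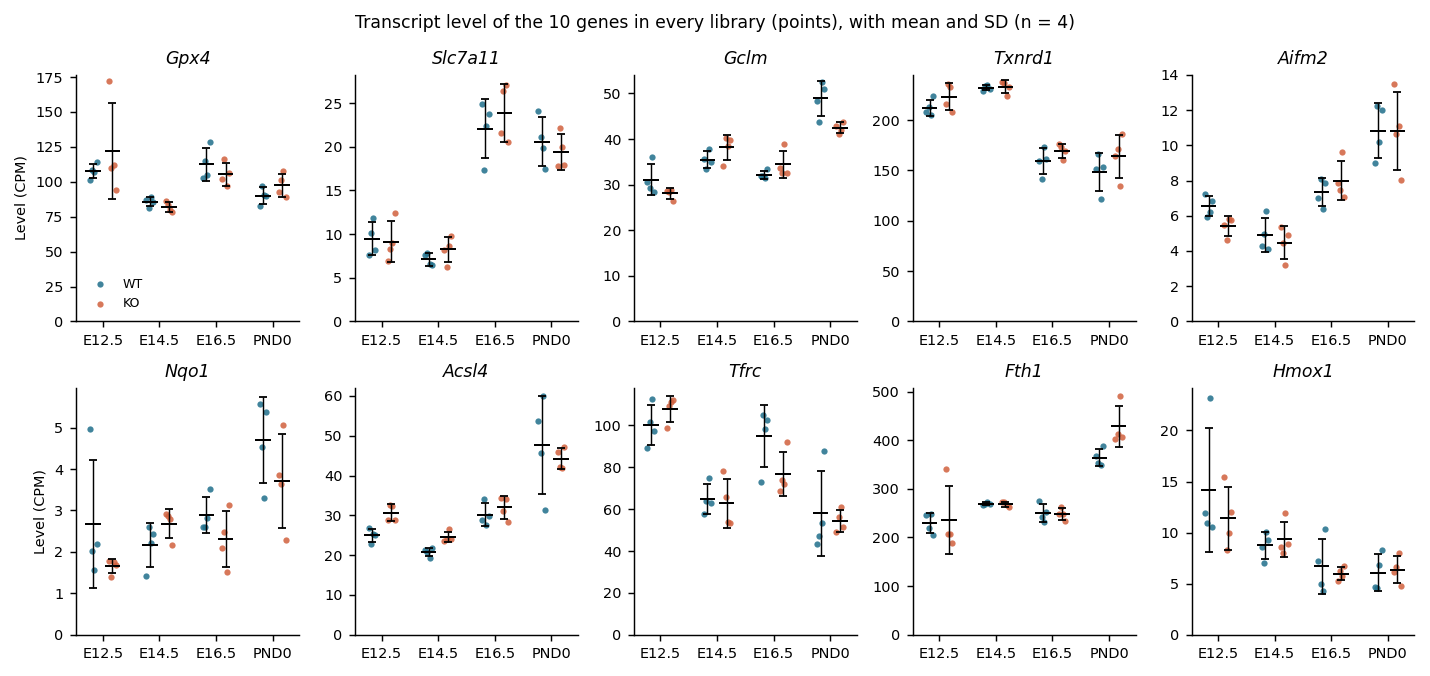
Each panel plots 1 gene, with its level in CPM against stage. Points are single libraries, blue for WT and orange for KO, the horizontal line is the mean and the bar is 1 SD of 4 libraries. Slc7a11 has its step between E14.5 and E16.5 in both genotypes, Fth1 and Acsl4 are highest at PND0, and single libraries stand above their group in Gpx4 and Fth1 at E12.5 KO, Hmox1 and Nqo1 at E12.5 WT and Tfrc at PND0 WT.

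Gpx4, the central enzyme of the set, had a level that went down, up and down again within narrow limits. WT libraries of E12.5 held 102, 108, 107 and 114 CPM, those of E14.5 87.2, 81.2, 89.1 and 85.6, those of E16.5 103, 115, 104 and 128 and those of PND0 82.5, 97, 90.4 and 90.1. The groups of neighbouring stages did not overlap in any of the 3 steps, although the whole course spanned a ratio of only 1.31 between the highest and the lowest stage mean. The log2 fold changes were -0.35, 0.40 and -0.38, with edgeR adjusted p of 2.42e-04, 8.43e-05 and 0.00148.

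Slc7a11, the cystine importer, showed the largest stage step of the set. It stood at 7.66, 7.88, 6.54 and 6.43 CPM in the E14.5 WT libraries and at 24.9, 17.3, 22.3 and 23.7 at E16.5, a 3.1-fold rise with no overlap (log2 fold change 1.63, SE 0.122, 95% interval 1.37 to 1.89, adjusted p 2.08e-08). Before that step it fell from 9.46 ± 1.91 (SD, n = 4) CPM at E12.5 (-0.42, adjusted p 0.0362, above the threshold without any one of 5 of the 8 libraries, at most 0.102), and after it the level at PND0 was 20.6 ± 2.76 (SD, n = 4), with a log2 change of -0.16 that did not pass (0.331). The KO libraries held 8.22, 6.28, 8.68 and 9.79 at E14.5 and 21.5, 26.4, 27.1 and 20.5 at E16.5, also with no overlap (the step was not tested within KO). Gclm, which feeds the same glutathione pathway, had its largest step later. Its WT libraries held 31.8, 31.9, 31.5 and 33.5 CPM at E16.5 and 48.4, 43.7, 52.6 and 51.02 at PND0, again with no overlap (log2 fold change 0.55, SE 0.0845, 95% interval 0.37 to 0.73, adjusted p 8.34e-05). Its 2 earlier steps had adjusted p of 0.0883 and 0.0931, but without E12.5 WT replicate 3 the first was 0.26 with 0.0078, in place of 0.17. Exons of Gclm overlap Gm17494 on the opposite strand by 296 bases and Gm6061 on the same strand by 244, out of 6291 exonic bases, and since no source used here gives the strand setting of the counting, reads of those stretches cannot be told apart.

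Txnrd1 ran the other way from Slc7a11. It held 229, 234, 235 and 231 CPM in the E14.5 WT libraries, which lay close together, and 159.6, 142, 173 and 161 at E16.5. That fall left no overlap (log2 fold change -0.54, SE 0.056, 95% interval -0.66 to -0.42, adjusted p 6.10e-07), and at PND0 the level was 148 ± 18.8 (SD, n = 4) (step of -0.16, adjusted p 0.158). The small rise from 212 ± 7.96 (SD, n = 4) at E12.5 (0.11, adjusted p 0.0451) was above the threshold without any one of 6 of the 8 libraries (at most 0.0936).

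Both quinone reductases were low and highest at birth. Aifm2 held 4.29, 4.97, 6.26 and 4.12 CPM in the E14.5 WT libraries, 7.03, 8.07, 6.41 and 7.87 in those of E16.5 and 8.99, 12.2, 10.2 and 11.99 in those of PND0, with no overlap in either step. The steps were 0.59 and 0.50 on the log2 scale (adjusted p 0.0039 and 0.0117) and followed a lower level at E14.5 than at E12.5 (-0.44, 0.0363, above the threshold without any one of 5 of the 8 libraries). Aifm2 exons overlap 233 bases of H2afy2 on the opposite strand, with the same limit as for Gclm. Nqo1 held 4.96, 2.03, 1.56 and 2.18 CPM in WT at E12.5, and the first of these libraries lay above the other 3 by more than their whole spread. It passed only from E16.5 to PND0, where the means were 2.88 ± 0.437 (SD, n = 4) and 4.69 ± 1.04 (SD, n = 4) and 3 of the 4 later libraries lay above all earlier ones (log2 fold change 0.65, SE 0.22, 95% interval 0.18 to 1.12, adjusted p 0.0229, above the threshold without any one of 5 of the 8 libraries). From E12.5 to PND0 it missed the threshold (0.0618), and without E12.5 WT replicate 1 that change was 1.28 with an adjusted p of 8.89e-04.

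Acsl4, the enzyme that supplies the oxidizable fatty acids, fell and then rose in both later steps. WT libraries of E12.5 held 26.8, 22.9, 25.4 and 24.97 CPM, those of E14.5 21.2, 20.9, 19.4 and 21.8 and those of E16.5 28.9, 34.2, 27.5 and 29.9, with no overlap between neighbours. At PND0 they held 53.7, 45.6, 59.9 and 31.3, and the last of these, replicate 4, lay within the E16.5 range while the other 3 lay above it. The log2 steps were -0.28, 0.54 and 0.60 (adjusted p 0.00773, 3.48e-05 and 0.00914), and the level at PND0 was 1.9-fold that at E12.5.

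Tfrc and Fth1, the iron genes whose hairpins are printed above, moved in opposite directions in WT. The part of the hairpins in this was not tested. WT libraries of E12.5 held 89.5, 102, 112 and 97.6 CPM of Tfrc, those of E14.5 57.6, 63.8, 74.7 and 63.2, those of E16.5 72.9, 105, 98.5 and 102 and those of PND0 43.5, 46.98, 53.6 and 87.7. The first pair of groups did not overlap. In the second step E16.5 WT replicate 1 (72.9) lay within the E14.5 range, and in the third that library lay below PND0 WT replicate 4 (87.7). The log2 steps were -0.65, 0.56 and -0.76 (adjusted p 1.56e-04, 0.00363 and 0.0283), and the last was above the threshold without any one of 6 of the 8 libraries. WT libraries of E12.5 held 246, 219, 249 and 206 CPM of Fth1, those of E14.5 267, 269.6, 273 and 269, those of E16.5 274, 242, 231 and 251 and those of PND0 367, 353, 349 and 388. It rose where Tfrc fell, by 0.21 to E14.5 (adjusted p 0.0173, and 0.0582 without E12.5 WT replicate 2) and by 0.49 to PND0 (6.64e-05), with no overlap in either step, and was -0.10 in the step where Tfrc rose (0.107, and -0.16 with 0.0075 without E16.5 WT replicate 1). Across the 16 WT libraries the log2 levels of the pair had a Pearson r of -0.70, given as a description because the libraries share stages. Ftl1, the ferritin light chain, named here after its values were seen, rose by 0.32 to E14.5 like Fth1 and fell by 0.71 to E16.5. Its change from E12.5 to PND0 was -0.18 (edgeR adjusted p 0.052), where that of Fth1 was 0.66. Over that span Slc11a2 (0.26, edgeR adjusted p 0.019) and Slc40a1 (0.59, 0.00446), iron genes tested beside Ftl1, rose. Alas2, tested beside them, fell (-2.15, 0.00103).

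Hmox1, which frees iron from heme, fell over development, and part of its level lay in a single library. WT libraries of E12.5 held 11.9, 10.9, 23.2 and 10.5 CPM, those of E14.5 8.63, 7.005, 10.1 and 9.24, those of E16.5 7.23, 5.01, 4.25 and 10.3 and those of PND0 4.64, 4.59, 6.87 and 8.28. Every E12.5 library lay above every PND0 library, and the log2 change over that span was -1.21, SE 0.291, 95% interval -1.85 to -0.56, adjusted p 0.00339. The first step (-0.71, 0.0411) was above the threshold without any one of 5 of the 8 libraries. The step to E16.5 (-0.38, 0.207) was -0.66 with an adjusted p of 0.00646 without E16.5 WT replicate 4.

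Markers of red blood cells, which are rich in heme and in iron genes, were high in some of the libraries that stood apart. The summed level of 13 erythroid markers was 9171 CPM in E12.5 WT replicate 3, the library with 23.2 CPM of Hmox1, against 2025 to 4600 in the other 3. The same library had 249 CPM of Fth1, close to the 246 of replicate 1, whose sum was 4600. In the KO at E12.5 it was 5026 in replicate 1, the library with 340.4 CPM of Fth1 and 15.4 of Hmox1, against 1637 to 1958. At PND0 it was 2320 in KO replicate 3, the library with 491 CPM of Fth1, against 248 to 644 in the other KO and 213 to 283 in the WT libraries. At E14.5 it was 1131 to 1484 in WT and 1078 to 1446 in KO, and at E16.5 it was 678 to 1445 in WT and 544 to 784 in KO. The embryonic globin Hbb-bh1 was at 0 in both genotypes at PND0 and Hbb-y in the KO, while none of the 13 markers was at 0 in the other groups. The part of these cells in the levels of Fth1, Hmox1 and Tfrc was not tested. E12.5 KO replicate 1 was also the library with 5.64% of ribosomal RNA.

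**Figure D2:**
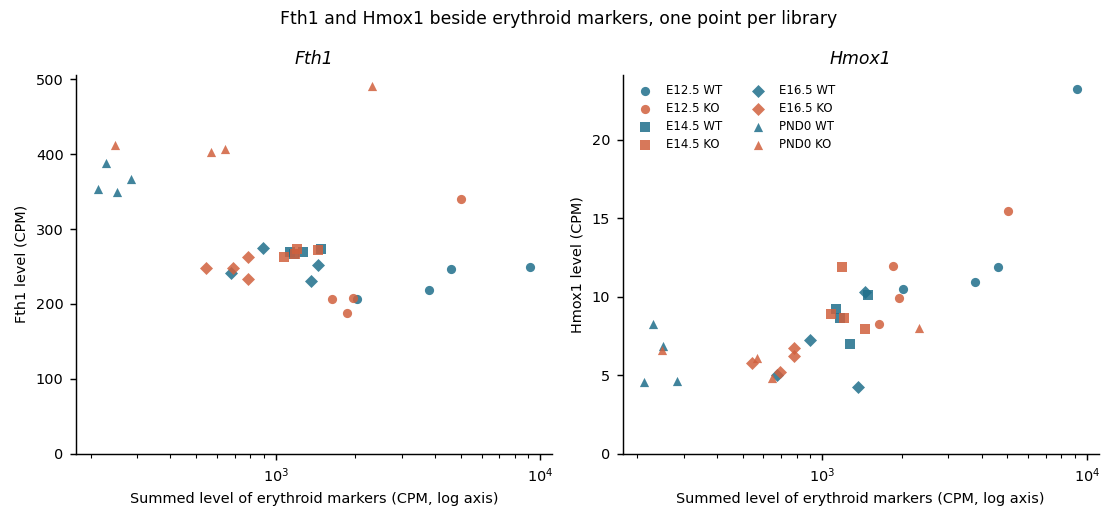
The 2 panels plot the level of Fth1 and of Hmox1 in CPM against the summed level of 13 erythroid markers in CPM on a log axis. Each point is 1 library, with the shape giving the stage and the colour the genotype (blue WT, orange KO). The libraries with 340.4 and 491 CPM of Fth1 and with 23.2 CPM of Hmox1 have the highest erythroid sum of their groups.

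**Figure D3:**
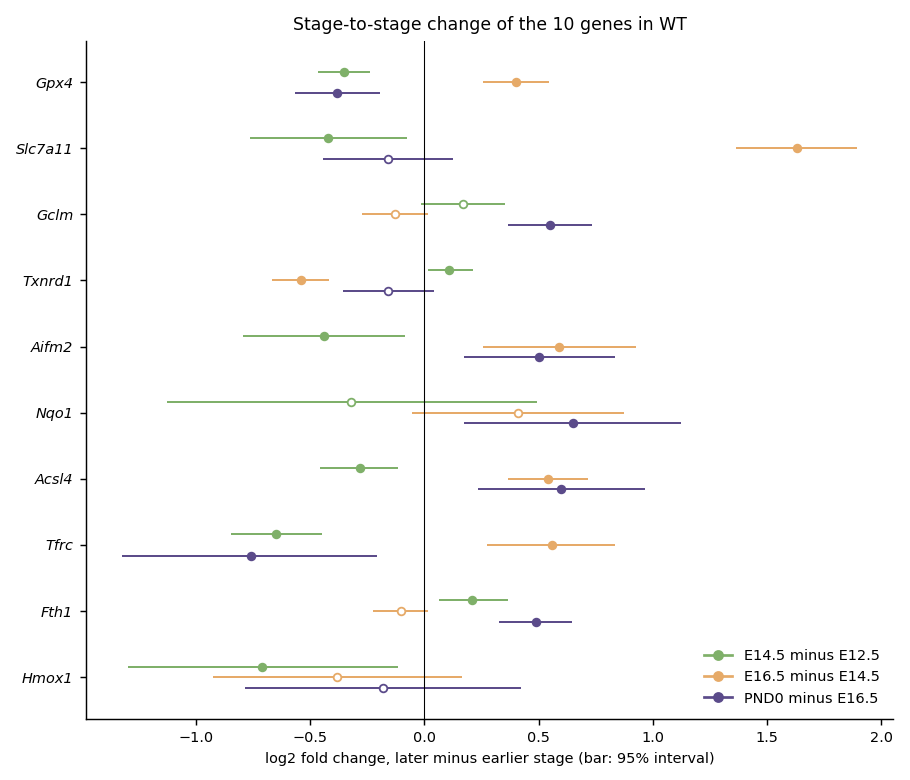
The plot gives the log2 fold change of each gene in WT brain from each stage to the next, with its 95% interval as a bar. Filled points passed the test and open points did not. Slc7a11 from E14.5 to E16.5 (1.63) lies apart from the rest, which run from -0.76 to 0.65.

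The loss of Dhcr7 left no member past the threshold at any stage. With edgeR, 0 of 10 passed at E12.5 (0.0177% of all genes tested did), 0 of 10 at E14.5 (0.527%), 0 of 10 at E16.5 (0.0462%) and 0 of 10 at PND0 (1.44%), and with all stages averaged 0 of 10 passed as well (0.558%). An unadjusted p under 0.05 was reached by 1, 1, 1 and 2 members at the 4 stages and by 1 in the average, where 4.7%, 8.73%, 11.5%, 18% and 12.4% of all genes reached it. DESeq2 called 0 of the 10, 6, 4, 9 and 9 members to which it gave an adjusted p. The medians of the members were -0.02, 0.05, 0.04 and -0.04 on the log2 scale, beside 0.00 for all genes at each stage. The counts of 0 held without any single library of the 32.

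The intervals say how large a difference these libraries leave room for. For the average over the 4 stages the 95% interval of the log2 fold change was -0.08 to 0.14 for Gpx4, -0.12 to 0.04 for Gclm, 0.00 to 0.16 for Txnrd1, -0.11 to 0.21 for Slc7a11 and -0.05 to 0.18 for Fth1. It was wider for Aifm2 (-0.24 to 0.10), Tfrc (-0.24 to 0.08) and Hmox1 (-0.34 to 0.18) and widest for Nqo1 (-0.55 to 0.03), the gene with the fewest counts. The interval of Acsl4, 0.01 to 0.25, lay above 0, and this was the 1 member with an unadjusted p under 0.05 in the average (0.0364, adjusted p 0.361). At single stages the intervals ranged from -1.54 to 0.10 for Nqo1 at E12.5 to -0.06 to 0.07 for Txnrd1 and -0.07 to 0.06 for Fth1 at E14.5.

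**Figure D4:**
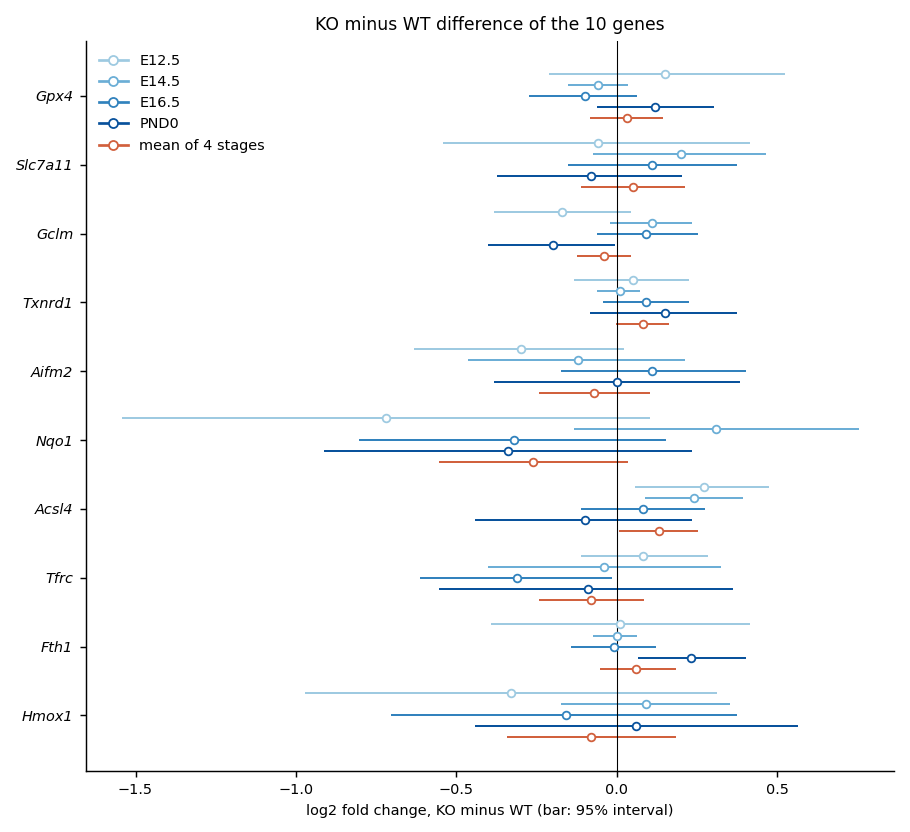
The plot gives the log2 fold change of KO minus WT for each gene at the 4 stages (blue shades) and averaged over them (orange), with the 95% interval as a bar. All points are open because none passed the test. Acsl4 lies above 0 with its interval at E12.5 and E14.5, Fth1 at PND0, and Tfrc below 0 at E16.5 and Gclm at PND0.

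Gpx4 held 172, 109.7, 112 and 94.3 CPM in the KO libraries at E12.5, and replicate 1, with the highest share of ribosomal RNA, lay above all WT libraries while the other 3 lay within 94.3 to 112. At the later stages the genotypes overlapped in Gpx4, with means of 85.8 against 81.95, 113 against 105 and 90 against 97.6 CPM in WT and KO. Slc7a11 differed by -0.06, 0.20, 0.11 and -0.08 on the log2 scale at the 4 stages, each with an adjusted p of at least 0.71, beside a stage step of 1.63. Txnrd1 had means of 212 against 223, 232 against 233, 159 against 169.6 and 148 against 164 CPM in WT and KO, with overlap at every stage.

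Gclm came close to a separation at PND0. The KO libraries held 42.9, 41.02, 42.05 and 43.8 CPM and the WT libraries 48.4, 43.7, 52.6 and 51.02, so that 3 of 4 KO libraries lay below all WT libraries. The log2 fold change was -0.20 with an SE of 0.0923 and an edgeR adjusted p of 0.257. With a correction for transcript length it was -0.08, with an adjusted p of 0.732. At E12.5 the difference was -0.17, and at E14.5 and E16.5 it had the other sign, 0.11 and 0.09. None of these passed.

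Aifm2 was lower in every KO than in every WT library at E12.5, with 5.48, 4.61, 5.84 and 5.75 against 7.23, 5.96, 6.24 and 6.83 CPM. With Acsl4 it was 1 of the 2 members whose genotypes did not overlap at that stage, where 2.73% of all genes did not. The log2 fold change of -0.30 had a 95% interval of -0.63 to 0.02 and an adjusted p of 0.875, and at the later stages the genotypes overlapped, with differences of -0.12, 0.11 and 0.00. Nqo1 at E12.5 was -0.72, with 1.78, 1.40, 1.75 and 1.69 CPM in the KO libraries, beside 4.96 in WT replicate 1 and 1.56 to 2.18 in the other 3 WT libraries. The summed level of 12 markers of meninges and fibroblasts was 3733.7 CPM in that WT library, against 1619.1 to 2465.3 in the other WT libraries. In the KO libraries, in the same order as above, it was 2671.6, 814.1, 890.6 and 2972.9 CPM. The part of these cells in the level of Nqo1 was not tested.

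Acsl4 was higher in all KO than in all WT libraries at 2 stages, the only member of which this held at more than 1. At E12.5 the KO libraries held 28.9, 32.7, 32.4 and 28.7 CPM against 26.8, 22.9, 25.4 and 24.97 in WT. At E14.5 they held 23.6, 24.1, 26.6 and 24.1 against 21.2, 20.9, 19.4 and 21.8. At both stages all 4 KO libraries lay above all 4 WT libraries, as was so for 2.73% and 4.78% of all genes in either direction. The log2 fold changes were 0.27 (95% interval 0.06 to 0.47) and 0.24 (0.09 to 0.39), a 1.2-fold and a 1.18-fold level, and the edgeR adjusted p were 0.875 and 0.202, so neither passed. Over the alternatives the value stayed between 0.23 and 0.31 at E12.5 and between 0.20 and 0.26 at E14.5, and the smallest adjusted p was 0.145, with DESeq2 at E14.5. The difference was 0.08 at E16.5 and -0.10 at PND0, where the KO libraries held 45.9, 42.1, 41.8 and 47.1 CPM. All lay within the WT range, but its lower end was replicate 4 (31.3 CPM), and the next WT library held 45.6. The average over stages was 0.13 (edgeR adjusted p 0.361). It ran from 0.09 without PND0 WT replicate 4 to 0.16 without PND0 WT replicate 3. Acsl4 is X-linked, and with a covariate made of Y-linked genes and Xist the values at E12.5 and E14.5 were 0.25 and 0.24.

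Among the iron genes, Fth1 at PND0 was the member closest to the threshold. The KO libraries held 402, 412, 491 and 406 CPM and the WT libraries 367, 353, 349 and 388. All 4 KO libraries lay above all WT libraries, as was so for 11.7% of all genes in either direction at that stage. The log2 fold change was 0.23 (SE 0.0797, 95% interval 0.07 to 0.40), with an adjusted p of 0.133 by edgeR and 0.0775 by DESeq2. Without KO replicate 3, the library with the high erythroid sum, it was 0.16 with an adjusted p of 0.28, and with a correction for transcript length it was 0.12 with 0.519. Ftl1, again named after its values were seen, was 0.28 at PND0, with an adjusted p of 0.0628 by edgeR and 0.0143 by DESeq2. Over the alternatives its adjusted p was as high as 0.414. Slc11a2, Slc40a1, Gclc, Hmox2, Nfe2l2 and Alas2 were tested beside it and did not pass at PND0 (edgeR adjusted p 0.32 to 0.926). At E14.5 and E16.5 the genotype means of Fth1 were 269.6 against 268 and 249.6 against 248 CPM, and at E12.5 KO replicate 1 (340.4) stood above the other 7 libraries (188 to 249).

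At E16.5 no member separated the genotypes, as 6.45% of all genes did. Tfrc at that stage held 68.9, 73.7, 72.05 and 92 CPM in KO and 72.9, 105, 98.5 and 102 in WT, and 2 of the 4 KO libraries lay below all WT libraries. The log2 fold change was -0.31 (95% interval -0.61 to -0.02, adjusted p 0.407), and without WT replicate 1, the library with 3.75% of ribosomal RNA, it was -0.42 with 0.107. The erythroid sums given above were lower in KO than in WT at that stage on their medians, 737.5 against 1128. At the other stages Tfrc differed by 0.08, -0.04 and -0.09. Hmox1 overlapped between genotypes at every stage, with differences of -0.33, 0.09, -0.16 and 0.06, and its 95% intervals were among the widest (as far as -0.97 to 0.31 at E12.5).

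Whether the genotype difference changed between stages was tested as an interaction over all 32 libraries, and 0 of 10 members passed, where 0.0256% of all genes did. Gclm had the smallest unadjusted p (0.012, adjusted 0.266), and 13.5% of all genes reached an unadjusted p under 0.05. Without E12.5 KO replicate 1 the test called 797 genes in place of 5, and Fth1 was the single member among them (adjusted p 0.0385). For Acsl4, whose groups separated at the early stages, the change between stages did not pass either (adjusted p 0.443).

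Per kilobase of the longest protein-coding transcript, the only scale on which genes can be ranked against each other here, Fth1 came first at every WT stage, then Gpx4, Txnrd1 and Tfrc. At E12.5 the levels were 154 ± 14.1 CPM per kb for Fth1, 108 ± 5.29 for Gpx4, 58.6 ± 2.20 for Txnrd1 and 20.5 ± 1.95 for Tfrc, and the libraries of neighbours in this order did not overlap. Hmox1 (9.01 ± 3.87), Gclm (5.56 ± 0.615) and Acsl4 (4.74 ± 0.308) followed, with Gclm and Acsl4 overlapping. Aifm2 (2.13 ± 0.187), Nqo1 (1.73 ± 0.993) and Slc7a11 (1.03 ± 0.207) were last and overlapped in turn. By PND0 the middle of the order had closed up: Tfrc (11.8 ± 4.14), Acsl4 (9.02 ± 2.35) and Gclm (8.75 ± 0.698) overlapped as neighbours, as did Hmox1 (3.88 ± 1.15), Aifm2 (3.51 ± 0.499), Nqo1 (3.02 ± 0.669) and Slc7a11 (2.23 ± 0.299), while Fth1 reached 244 ± 11.6.

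**Figure D5:**
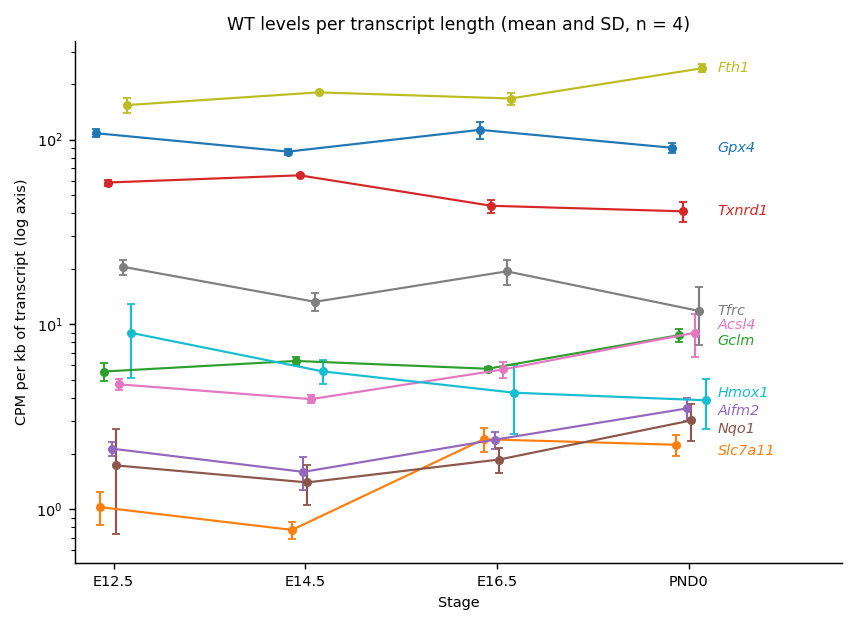
The plot gives the WT level of each gene per kilobase of its longest protein-coding transcript, in CPM per kb on a log axis, against stage. Points are means and bars 1 SD of 4 libraries. Fth1, Gpx4, Txnrd1 and Tfrc keep their order at all 4 stages. Slc7a11 has rank 10 at E12.5, E14.5 and PND0 and rank 8 at E16.5, where it overlaps Aifm2.

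The members also differed in how steady they were between libraries of a group. The median coefficient of variation over the 8 groups was 4.97% for Txnrd1, 6.1% for Fth1, 6.19% for Gclm, 6.77% for Acsl4 and 7.17% for Gpx4. It was 12.3% for Tfrc, 14.1% for Aifm2, 14.6% for Slc7a11, 23.1% for Nqo1 and 23.9% for Hmox1. Across the 16 WT libraries the members that ran most closely together were Gclm and Fth1 (Pearson r of log2 CPM 0.95), then Aifm2 and Acsl4 (0.78) and Gpx4 and Tfrc (0.75). Those that ran most against each other were Slc7a11 and Txnrd1 and also Txnrd1 and Acsl4 (both -0.87). These are descriptions over libraries that share stages. Of the 6 members known as NRF2 targets, Slc7a11, Gclm and Fth1 rose from E12.5 to PND0, Txnrd1 and Hmox1 fell and Nqo1 did not pass.

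Among 12496 genes that averaged 5 CPM or more, those with the pattern most like a member over all 32 libraries, by Pearson r of log2 CPM, were Tle3 (r = 0.962) and Midn (0.961) for Txnrd1, Ryr3 (0.951) and Tenm1 (0.947) for Slc7a11, and Ndufs7 (0.934) and Psma3 (0.928) for Gpx4. They were Lamp1 (0.922) and Ola1 (0.921) for Fth1, Btbd11 and Pcdhga3 (both 0.907) for Gclm, Paxbp1 (0.903) and Ints6l (0.888) for Tfrc, and Rdh11 (0.892) and Gopc (0.890) for Acsl4. Aifm2 had Eln (0.890) and Apoe (0.887), Hmox1 had Anapc7 (0.849) and Psmd12 (0.815), and Nqo1 had Timp3 (0.800) and Als2cl (0.793), the lowest values of the 10. Over the 16 WT libraries alone the first-ranked gene was another one for 9 of the members, with r from 0.885 (Anapc7 for Hmox1, the one kept) to 0.983 (Zfp646 for Txnrd1). For Acsl4 it was Gopc (0.964), which ranked second over the 32 libraries.

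The wider pathway, 148 further genes in 8 lists, had few genotype differences past the threshold. Of the genes tested, 0 passed at E12.5, 1 at E14.5 (0.714%, beside 0.527% of all genes), 0 at E16.5 and 1 at PND0 (0.699%, beside 1.44%). In the average over stages 4 passed (2.76%, beside 0.558%), of which 3 belong to the list of 18 genes for polyunsaturated fatty acids and phospholipids. The lists were chosen with earlier results of these data known, so these shares cannot show an excess in the pathway. Scd2, a desaturase that makes monounsaturated fatty acids, was lower in KO at E14.5, with 1009.0 to 1022.9 CPM against 1214.5 to 1315.8 in WT (log2 fold change -0.30, adjusted p 5.45e-10, but 0.708 with all 32 libraries in 1 fit), and in the average (-0.19, 0.00742). Its relative Scd1 was lower in KO at PND0, with 58.8 to 65.1 CPM against 75.9 to 94.0 (-0.45, adjusted p 0.0249). That call was lost without any one of 4 of the 8 libraries, with all 32 libraries in 1 fit (0.0566) and with length offsets (0.0805). At E12.5, E14.5 and E16.5 the difference of Scd1 had the other sign (0.31, 0.19 and 0.21, none past the threshold), and in the average it was 0.07.

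Lpcat3, which inserts polyunsaturated fatty acids into phospholipids and so acts just after Acsl4, was lower in KO in the average over stages (log2 fold change -0.21, adjusted p 0.00461, and 0.0574 with no filter on low counts). Its KO libraries lay below all WT libraries at E12.5 (18.2 to 20.2 CPM against 21.6 to 26.2), E16.5 (17.59 to 19.66 against 19.70 to 20.68) and PND0 (19.55 to 23.05 against 24.47 to 26.61), and overlapped them at E14.5. Among all genes 2.73%, 6.45% and 11.7% did not overlap at those 3 stages, in either direction. In the edgeR fits of a single stage Lpcat3 did not pass (adjusted p 0.875, 0.586, 0.604 and 0.19). At PND0 it passed only with all 32 libraries in 1 fit (0.0293). Fads1, the desaturase that makes arachidonic acid, was higher in the average (0.13, adjusted p 0.0403), and so was Tkt, an enzyme of the pentose phosphate route that NRF2 drives (0.14, 0.0433). Both missed the threshold without most single libraries and with no filter on low counts (0.145 for Fads1 and 0.108 for Tkt). The lists of glutathione synthesis (12 genes), selenoproteins and peroxide removal (25), coenzyme Q and lipophilic antioxidants (18), lipid oxidation (9 to 13 of 16 tested), aldehyde detoxification (11 to 12 of 12) and iron handling (27) had 0 genes past the threshold in all 5 genotype comparisons. In these 6 lists the gene with the smallest p in the average was Slc3a2, the partner chain of SLC7A11 (log2 fold change 0.13, adjusted p 0.164), Txnrd2 (0.16, 0.215), Ttpa (-0.46, 0.233), Por (0.15, 0.0638), Cbr1 (0.08, 0.421) and Slc25a28 (0.16, 0.175). Por, which passes electrons to enzymes that can start lipid peroxidation, had an adjusted p of 0.00917 by DESeq2. It also passed with edgeR without some single libraries (smallest 0.0171, without PND0 WT replicate 2). At PND0 Slc25a28 passed with no filter on low counts (0.38, 0.0183) and with all 32 libraries in 1 fit (0.37, 0.0289). Tkt at PND0 passed with DESeq2 (0.24, 0.0436) and in that fit (0.23, 0.0422). Neither passed in the edgeR fit of that stage (adjusted p 0.196 and 0.102). Slc3a2 at PND0 passed with DESeq2 (0.34, 0.027), with no filter on low counts (0.34, 0.00725) and with all 32 libraries in 1 fit (0.33, 0.0177). It did not pass in the filtered edgeR fit of that stage alone (0.33, adjusted p 0.0795). The unadjusted p was under 0.05 for 4, 13, 23 and 27 of the genes tested, out of 148, at the 4 stages and 22 in the average. Among all genes 4.7%, 8.73%, 11.5%, 18% and 12.4% reached it, so the count in the lists rose over the stages as the share of all genes did. In the interaction 0 passed (18 unadjusted, where 13.5% of all genes reached an unadjusted p under 0.05).

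In WT 103 of the 143 genes of these lists that were tested passed from E12.5 to PND0, 72% beside 70.9% of all genes (34.5% higher and 36.4% lower). Of them 48 rose and 55 fell. Selenoproteins and peroxide-removing enzymes fell in 15 of 25 and rose in 4. Among those that fell were Gpx8, a peroxidase of the endoplasmic reticulum (log2 fold change -1.56), and Prdx4, a peroxiredoxin, from 45.9 to 16.3 CPM. Aldehyde detoxification fell in 8 of 12 and rose in 1, led by Ptgr1 (-2.29) and Gsta4 (-1.71). Genes for polyunsaturated fatty acids and phospholipids rose in 10 of 18 and fell in 3, with Acsl1, a relative of Acsl4, at 1.69 and Scd1 at 1.18. Glutathione and cystine genes rose in 7 of 12 and fell in 2, with the largest changes in Cbs, which makes cystathionine on the way to cysteine (2.79), and Gstm1 (2.15). Iron genes split into 9 higher and 11 lower of 27, with Heph, a ferroxidase (-2.09), and Slc25a37, the mitochondrial iron carrier of red cell precursors (-1.81), lowest. Coenzyme Q and antioxidant genes split into 6 and 5 of 18, with Ttpa, the vitamin E transfer protein, at 1.48. Of 13 lipid oxidation genes tested 3 rose and 6 fell, with Aloxe3 going from 0.559 to 14.35 CPM (4.68) and Alox12 at -1.67. Of 18 genes of the NRF2 list 8 rose and 5 fell, and the largest changes were those of Me1 (2.53) and Ephx1 (2.21).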

How the data were processed

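RNA from whole brains was enriched for polyadenylated transcripts and sequenced as paired 150-base reads, per the labels' protocols. The authors deposited 1 table of raw counts per gene symbol for each stage. The submitters' processing notes name HISAT2, SAMtools, featureCounts, DESeq2 and the mm10 build. Versions, annotation and strand setting of the counting are not given in the sources used here, and a wrong assignment of overlapping or antisense genes could shift their counts.

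From the counts, each comparison was fitted with edgeR 4.0.16 in R 4.3.3 (TMM scaling, filterByExpr with a minimum count of 10 and a minimum total of 15, robust quasi-likelihood test), with p-values adjusted by Benjamini-Hochberg over all genes tested and a threshold of 0.05. Comparisons at 1 stage used the 8 libraries of that stage, WT steps the 8 libraries of both stages, and the average over stages and the interaction all 32. Intervals cover 95%. CPM values printed use 1 scaling over all 32 libraries, and values per kb use the longest protein-coding transcript of GENCODE M21 (GRCm38). The 10 genes and the further lists were chosen with earlier results of these data known. Outside the 10, the genes named from each list were those called in a genotype comparison (or, with none, the one with the smallest p in the average) and the 2 with the largest called WT change from E12.5 to PND0 and a mean of at least 1 CPM. 1 gene that this rule names is not reported here. For likeness they were the 2 closest genes over 32 libraries and the 1 closest in WT. Alternatives were RLE size factors, no filter, DESeq2 1.42.0, replicate number as a block, a covariate of sex-linked genes, transcript length offsets, 1 fit of all 32 libraries and leaving out each library. Replicate pairs were checked for shared libraries: over 48 pairs within groups, chi-square per degree of freedom ran from 2.899 to 114.7, so no pair was merged. The fits were tested on simulated data. Total counts were 13.87 to 28.32 M per library.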

Additional observations from a re-analysis of the deposited data

Results flagged for a closer look

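Of 80 groups of 4 libraries examined (the 10 genes in 8 groups), 5 held a library whose gap to its nearest neighbour was, as a share of the range of the group, above Dixon's 95% critical value, where about 1 in 20 groups, or 4, would do so by chance. Fth1 was 340.4 CPM in E12.5 KO replicate 1, against 188.1 to 208.1 in the other 3 libraries. It was 491.3 CPM in PND0 KO replicate 3, against 402.4 to 412.4. Hmox1 was 23.21 CPM in E12.5 WT replicate 3, against 10.52 to 11.89. These 3 libraries had the highest summed erythroid level of their groups (5026.3, 2319.7 and 9170.5 CPM), and the part of those cells in the values was not tested. E12.5 KO replicate 1 also had 5.64% of its counts in the ribosomal RNA gene CT010467.1, and the part of that difference was not tested either. Gclm was 26.38 CPM in E12.5 KO replicate 4, the lowest of its group, against 28.45 to 28.83. Nqo1 was 2.175 CPM in E14.5 KO replicate 4, also the lowest, against 2.795 to 2.904.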

How the results depend on the processing

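The count of 0 members past the threshold in the genotype comparisons held under every alternative run, except that the interaction gave 0 to 1 without a library. Of 970 alternative values of members between genotypes 922 kept their sign. Of 480 in WT 478 kept it, with 40 calls lost, 9 gained and 0 reversed. In WT, members past the threshold from E12.5 to E14.5 numbered 8, but 5 with no filter and 4 to 7 without a library. In the later steps they numbered 6 to 7 and 5 to 6 without a library, and 9 to 10 from E12.5 to PND0. Counts over all genes moved more. At E12.5 (3 genes) they were 30 with DESeq2, 52 with all 32 libraries in 1 fit and 1 to 5 without a library. At E14.5 (94) they were 146 with no filter, 4 in the fit of 32 and 52 to 155 without a library. At E16.5 (8) they were 233 with no filter, 168 with DESeq2, 4 with the covariate of sex-linked genes, 3 in the fit of 32 and 3 to 14 without a library. At PND0 (250) they were 1091 with no filter, 921 with DESeq2, 45 with length offsets, 1205 in the fit of 32 and 35 (without WT replicate 3) to 263 without a library. The average over stages (109) gave 72 with no filter, 356 with DESeq2 and 63 to 256 without a library, and the interaction (5) gave 11, 344 and 0 to 797 (the last without E12.5 KO replicate 1). Same-numbered WT and KO libraries did not deviate together (correlations of -0.44 to 0.34, 1 of 16 libraries closest to its own number). With the replicate block the counts over all genes were 6 for E12.5, 131 for E14.5, 5 for E16.5 and 356 for PND0, with 77 in the average and 0 in the interaction, and 5 members passed from E12.5 to E14.5. The cause of these changes was not tested. Depth limits Nqo1 most, with 21 to 106 counts per library.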
